A study of Mus musculus with 4 samples.

Results

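The genes described here are 10 genes for proteins that fold, or help to clear, newly made proteins in the endoplasmic reticulum (ER): Sdf2l1, Hspa5, Pdia4, Pdia6, Dnajb9, Herpud1, Creld2, Manf, Hyou1 and Calr. They were chosen by gene name with their 5FU minus Basal differences on these same arrays already known, so those differences are given as a description. Of the 10 genes, 9 had a probe set that the platform annotation pairs with 1 gene, out of 22180 genes so measured in all. The probe set that holds Pdia4 is annotated to Pdia4 and Mir704 together, and Pdia4 is therefore not given a value.

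RNA was measured on 4 Affymetrix arrays, 1 for each group. The cells were LSK cells, bone marrow cells sorted for no lineage markers and for Sca-1 and c-Kit, a gate that takes in blood stem cells and early progenitors. AMKO mice were sampled on day 8 after 5FU and on day 0 (Basal), and Ctrl mice likewise. The dose of 5FU, or 5-fluorouracil, a drug that kills dividing cells, was 150 mg/kg. All were male mice aged 4 months of the strain written as C57/B6. The labels give AMKO as a genotype without saying which gene it concerns or in which cells. They also leave out how many mice went into an array. The genotype could therefore not be checked against a gene.

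Proteins bound for secretion or for membranes enter the ER unfolded and are folded there by chaperones, disulfide isomerases and lectins. When unfolded protein builds up, the sensors IRE1, PERK and ATF6 start the unfolded protein response, which raises transcription of many of these helpers and of the machinery that returns failed proteins to the cytosol for degradation. Blood stem cells are known for a low rate of protein synthesis, and dividing progenitors make more protein.

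The promoters are shown first because the element that bears this response can be read in them. The ER stress response element, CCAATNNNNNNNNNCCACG, is bound by NF-Y and ATF6 or XBP1. Its second form is ATTGGNCCACG. Each was searched on both strands of the RefSeq promoter windows of build GRCm38.p6, which run from 250 bases before an annotated start to 50 after it. The first form was found in 39 of 32851 such windows (0.119%) and the second in 12 (0.0365%). Windows were listed for 8 of the 10 genes, all but Manf and Hyou1. The first form was found in those of Hspa5, Pdia6, Creld2 and Calr, and the second in that of Herpud1. Neither was found in those of Sdf2l1, Dnajb9 and Pdia4, which says only that these letters are not in the windows searched. The unfolded protein response element TGACGTGG, found in 222 windows (0.676%), was in none of the 8. Below are 100 bases on the strand of each gene, lying before its start, with the element in capitals. In Creld2 and Calr it reads on the opposite strand, so the capitals hold its reverse complement. Sdf2l1 and Dnajb9, the genes with the highest and the lowest 5FU difference, are shown without one.
Hspa5 (chr2:34771984-34772083, plus strand): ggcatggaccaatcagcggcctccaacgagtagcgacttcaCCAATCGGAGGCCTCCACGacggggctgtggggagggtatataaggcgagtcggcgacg
Pdia6 (chr12:17266450-17266549, plus strand): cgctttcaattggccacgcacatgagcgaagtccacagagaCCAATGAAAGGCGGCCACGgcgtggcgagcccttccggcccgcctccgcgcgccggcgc
Creld2 (chr15:88819479-88819578, plus strand): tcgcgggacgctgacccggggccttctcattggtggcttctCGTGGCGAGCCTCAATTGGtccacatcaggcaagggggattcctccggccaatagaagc
Calr (chr8:84847035-84847134, minus strand): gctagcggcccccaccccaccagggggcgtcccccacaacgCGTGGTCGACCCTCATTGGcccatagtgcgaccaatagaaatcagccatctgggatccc
Herpud1 (chr8:94386329-94386428, plus strand): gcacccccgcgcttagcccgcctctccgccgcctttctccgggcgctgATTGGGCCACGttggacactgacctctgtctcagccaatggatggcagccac
Sdf2l1 (chr16:17132384-17132483, minus strand): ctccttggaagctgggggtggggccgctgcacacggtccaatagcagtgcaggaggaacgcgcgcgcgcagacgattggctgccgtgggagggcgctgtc
Dnajb9 (chr12:44210069-44210168, minus strand): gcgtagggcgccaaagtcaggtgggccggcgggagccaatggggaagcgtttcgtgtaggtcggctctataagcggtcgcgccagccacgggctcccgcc

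**Figure D1:**
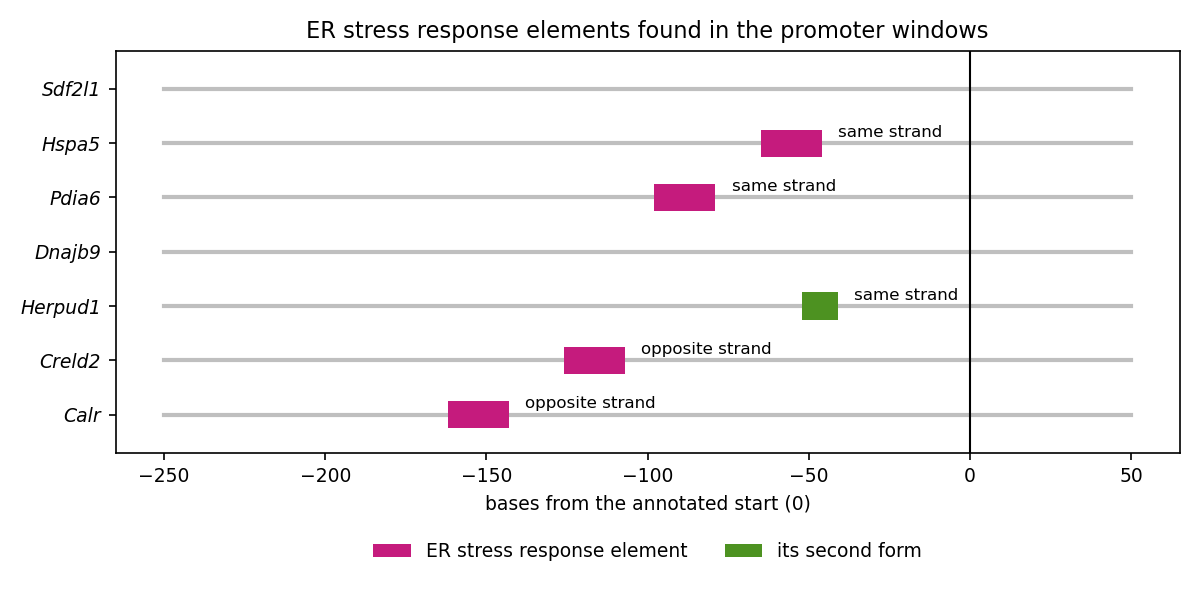
Position of the ER stress response element (pink) and its second form (green) in the promoter windows of 7 of the genes, in bases from the annotated start. The nearest to the start is that of Herpud1, beginning 52 bases before it, and the farthest that of Calr, beginning 162 bases before it.

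Values are the authors' deposited log2 signals, so a difference of 1 is 2-fold, and levels are compared within a gene only. With 1 array in each group no value has a replicate error, and a difference of 1 array from 1 array was not tested. As a scale for such differences, the central 90% of the 14061 genes kept (those with a highest value of at least 5.475, the median of all values) ran from -0.86 to 0.98 for 5FU minus Basal in AMKO and from -0.95 to 1.0 in Ctrl. It ran from -0.61 to 0.55 for AMKO minus Ctrl after 5FU and from -0.51 to 0.47 at Basal. The 9 genes lay above 5.475 on all 4 arrays.

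The arrays differed in the markers of other cells they held. Neutrophil genes averaged 10.48 on the Ctrl 5FU array and 5.03 to 5.21 on the other arrays, granulocyte-monocyte genes 9.06 against 6.15 to 6.43, and B-lineage genes 7.56 against 5.41 to 5.53. All 15 neutrophil genes measured were above 5.475 on the Ctrl 5FU array, and 4 to 7 were on the others. Xist, a transcript of female cells, was at 7.65 on the Ctrl 5FU array and at 3.97 to 4.41 on the others, although all mice were labelled male. Means of monocyte and macrophage genes (6.79 against 5.43 to 5.94) and erythroid genes (7.78 against 6.38 to 6.53) were also highest on the Ctrl 5FU array. Megakaryocyte genes averaged 7.73 in AMKO after 5FU, against 8.23 at Basal, and 7.48 in Ctrl after 5FU, against 8.21 at Basal. Skeletal muscle genes averaged 7.86 on the Ctrl Basal array and 5.48 to 5.81 on the others. The 8 stem and progenitor markers measured were above 5.475 on every array, with means of 9.47 to 9.87, while Ly6a, which encodes Sca-1, was not measured by a probe set of its own. After 5FU, 6 of these 8 markers were lower in each genotype, with medians of -0.50 in AMKO and -0.68 in Ctrl. Procr, a marker of stem cells, was at 8.13 in AMKO after 5FU, against 8.83 at Basal, and at 7.39 in Ctrl after 5FU, against 9.03 at Basal. Flt3, a receptor of multipotent progenitors, was at 7.15 in AMKO after 5FU, against 6.63 at Basal, and at 8.06 in Ctrl after 5FU, against 6.49 at Basal. The part of such a difference in the sorted cells in the results that follow was not tested. Plasma cells, whose ER is large, are marked by Jchain, Sdc1 and Slamf7 among others. Of 12 such markers measured, 9 were above 5.475 on the Ctrl 5FU array and 4 or 5 on the others, with a mean of 6.39 against 5.44 to 5.62. Tnfrsf17, Tnfrsf13b and Derl3 were under 5.475 on all 4 arrays. Jchain was at 6.55 on the Ctrl 5FU array and at 3.52 to 3.98 on the others, and Slamf7 at 8.34 against 4.35 to 4.78. Sdc1 was highest on the AMKO 5FU array, at 6.98, against 6.64 on the Ctrl 5FU array. So were Txndc5 (7.61 against 7.47) and Fkbp11 (8.12 against 7.86), which are also counted among the other ER folding genes below. Of the 9 plasma cell markers kept, 3 were higher on the AMKO than on the Ctrl 5FU array and 6 were lower.

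After 5FU the ER folding genes did not all differ in 1 direction. Of the 9, 6 in AMKO and 8 in Ctrl had a difference above 0, beside 52.3% and 50.1% of all kept genes. The Ctrl values of Hspa5, Herpud1 and Calr turned below 0 with quantile normalization, as did the AMKO value of Creld2. Sdf2l1 was higher by more than 2-fold and Pdia6 by just under 2-fold in both genotypes, Dnajb9 was lower in both, and Hspa5, Herpud1 and Creld2 differed by at most 0.36. At least 2-fold higher were 1 of 9 genes in AMKO and 1 of 9 in Ctrl (Sdf2l1 in each), beside 4.69% and 5.02% of all kept genes. At least 2-fold lower were 0 of 9 in each genotype, beside 3.55% in AMKO and 4.46% in Ctrl. At least 1.5-fold higher were 3 of 9 in AMKO (Sdf2l1, Pdia6 and Calr), beside 15.4% of all kept genes, and 4 of 9 in Ctrl (Sdf2l1, Pdia6, Manf and Hyou1), beside 11.9%. At least 1.5-fold lower were 0 of 9 in AMKO, beside 10.5%, and 1 of 9 in Ctrl (Dnajb9), beside 11.9%. The median difference of the 9 was 0.25 in AMKO and 0.20 in Ctrl, beside 0.03 and 0.01 over all kept genes. Fewer cells of a type and less RNA in each cell cannot be told apart in sorted bulk samples.

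**Figure D2:**
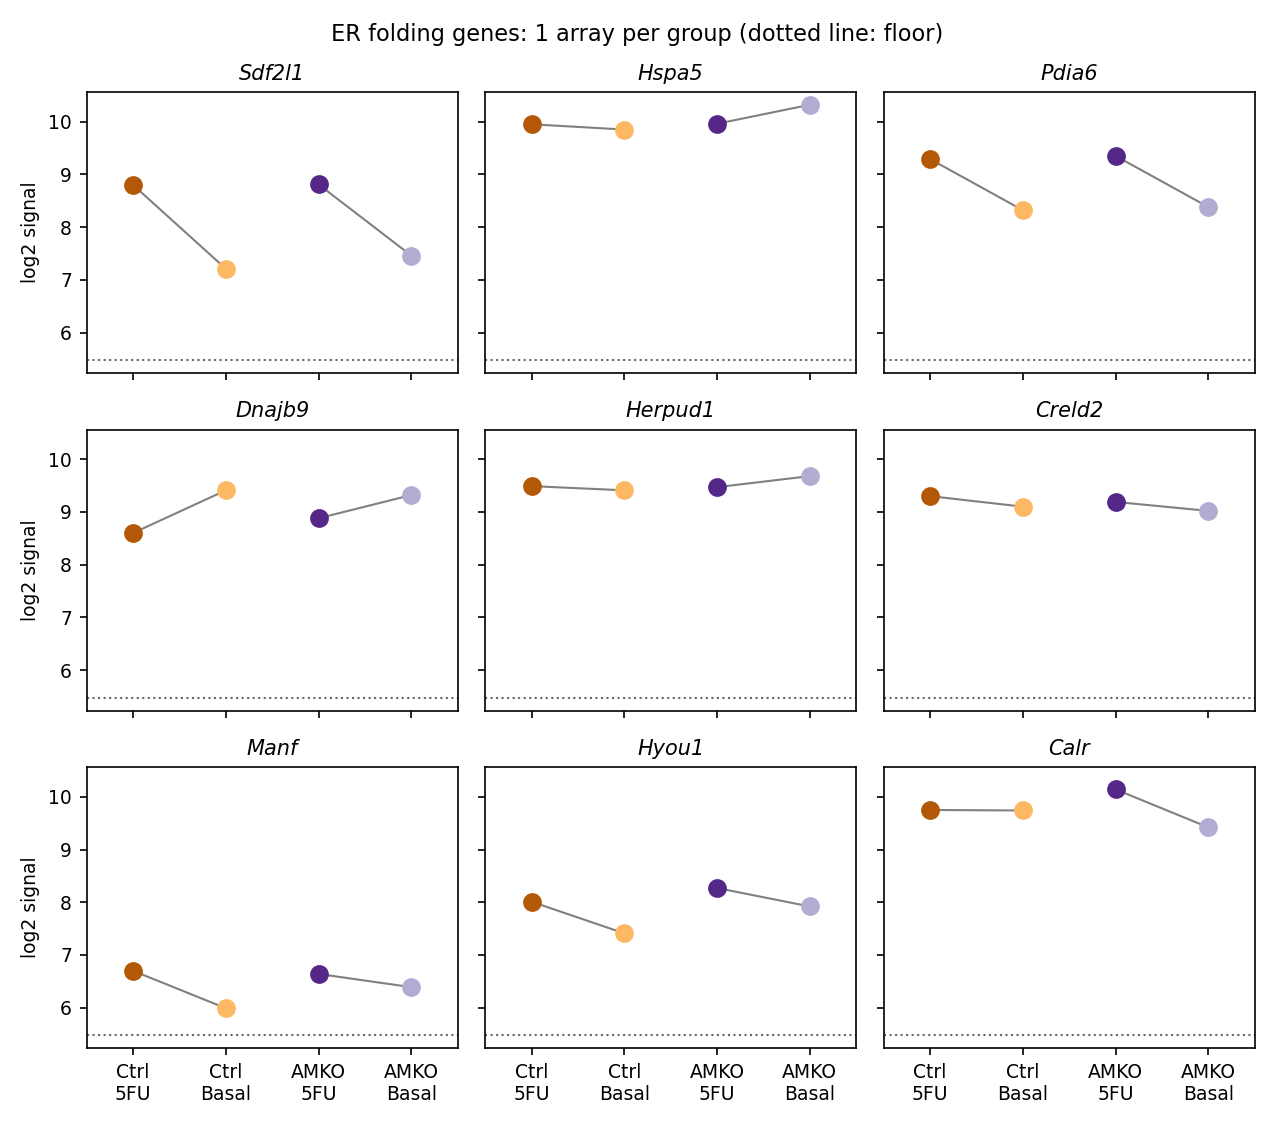
log2 signal of each of the 9 genes on the 4 arrays, 1 point per array, with lines joining the 5FU and Basal arrays of a genotype and a dotted line at 5.475. Sdf2l1 and Pdia6 are higher after 5FU in both genotypes and Dnajb9 is lower in both, while Hspa5 is highest on the AMKO Basal array.

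Sdf2l1 encodes a small ER protein that joins the BiP chaperone with its J-domain partners. Its signal was 8.81 in AMKO mice after 5FU, against 7.46 at Basal, and 8.80 in Ctrl mice after 5FU, against 7.21 at Basal. Both 5FU arrays lay above both Basal arrays, and the difference was 1.35 (2.55-fold) in AMKO and 1.59 (3.01-fold) in Ctrl. Among all kept genes, 98.2% had a lower 5FU difference than Sdf2l1 in AMKO and 97.9% in Ctrl.

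Pdia6 encodes a protein disulfide isomerase, which makes and reshuffles the disulfide bonds of folding proteins. Its signal was 9.35 in AMKO mice after 5FU, against 8.38 at Basal, and 9.29 in Ctrl mice after 5FU, against 8.32 at Basal. The difference was 0.97 (1.96-fold) in each genotype, so Pdia6 showed the same 5FU difference in AMKO and Ctrl to 2 decimals. Neutrophil, B-lineage and granulocyte-monocyte genes averaged 5.21, 5.47 and 6.43 on the AMKO 5FU array and 5.03, 5.53 and 6.29 on the AMKO Basal array. Monocyte and macrophage genes averaged 5.94 on the AMKO 5FU array and 5.64 on the AMKO Basal array. Of 9 kept, 7 had a 5FU difference above 0 in AMKO, beside 52.3% of all kept genes. At least 2-fold higher were 2 of 15 neutrophil genes, beside 4.69% of all kept genes. The part of any of these markers in the differences of Sdf2l1 and Pdia6 was not tested.

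Hspa5 encodes BiP, the main Hsp70 chaperone of the ER lumen and the usual reading of ER stress. Its signal was 9.96 in AMKO mice after 5FU, against 10.32 at Basal, and 9.95 in Ctrl mice after 5FU, against 9.85 at Basal. The AMKO Basal array stood above the other arrays, which lay within 0.11 of each other, and the 5FU difference was -0.36 in AMKO and 0.10 in Ctrl. The Ctrl difference became -0.02 after quantile normalization, so its direction depends on the scaling.

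Hyou1 encodes Grp170, the nucleotide exchange factor that releases BiP from its clients. Its signal was 8.27 in AMKO mice after 5FU, against 7.92 at Basal, and 8.01 in Ctrl mice after 5FU, against 7.41 at Basal. The difference was 0.35 in AMKO and 0.60 in Ctrl, and the Ctrl Basal array was the lowest of the 4. The plasma cell, neutrophil and B-lineage markers were also higher on the Ctrl 5FU array than on the Ctrl Basal array, and their part in the Ctrl differences of Hyou1 and Manf was not tested.

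Dnajb9 encodes ERdj4, a J-domain co-chaperone that brings BiP to IRE1 and to misfolded proteins, and it is a target of XBP1. Its signal was 8.88 in AMKO mice after 5FU, against 9.32 at Basal, and 8.60 in Ctrl mice after 5FU, against 9.41 at Basal. Both 5FU arrays lay below both Basal arrays, by 0.44 (1.36-fold) in AMKO and 0.81 (1.75-fold) in Ctrl. Of all kept genes, 15.8% had a lower difference than Dnajb9 in AMKO and 6.71% in Ctrl.

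Herpud1 encodes an ER membrane protein of the degradation machinery. Its signal was 9.47 in AMKO mice after 5FU, against 9.68 at Basal, and 9.49 in Ctrl mice after 5FU, against 9.41 at Basal. As for Hspa5, the AMKO Basal array was the highest, and the difference was -0.21 in AMKO and 0.08 in Ctrl, where quantile normalization turned it to -0.03.

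Creld2 encodes a secreted ER protein with disulfide isomerase activity. Its signal was 9.19 in AMKO mice after 5FU, against 9.02 at Basal, and 9.30 in Ctrl mice after 5FU, against 9.10 at Basal. The difference was 0.17 in AMKO and 0.20 in Ctrl, and quantile normalization turned the AMKO value to -0.01. Manf encodes an ER-resident and secreted protein that binds BiP. Its signal was 6.64 in AMKO mice after 5FU, against 6.39 at Basal, and 6.70 in Ctrl mice after 5FU, against 5.99 at Basal. Both 5FU arrays lay above both Basal arrays, with a difference of 0.25 in AMKO and 0.71 in Ctrl.

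Calr encodes calreticulin, the calcium-binding lectin that holds glycoproteins in the ER until they fold. Its signal was 10.14 in AMKO mice after 5FU, against 9.42 at Basal, and 9.75 in Ctrl mice after 5FU, against 9.74 at Basal. The difference was 0.72 (1.65-fold) in AMKO and 0.01 in Ctrl, where quantile normalization gave -0.11. Over the scalings tried, the AMKO value stayed between 0.55 and 0.83.

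**Figure D3:**
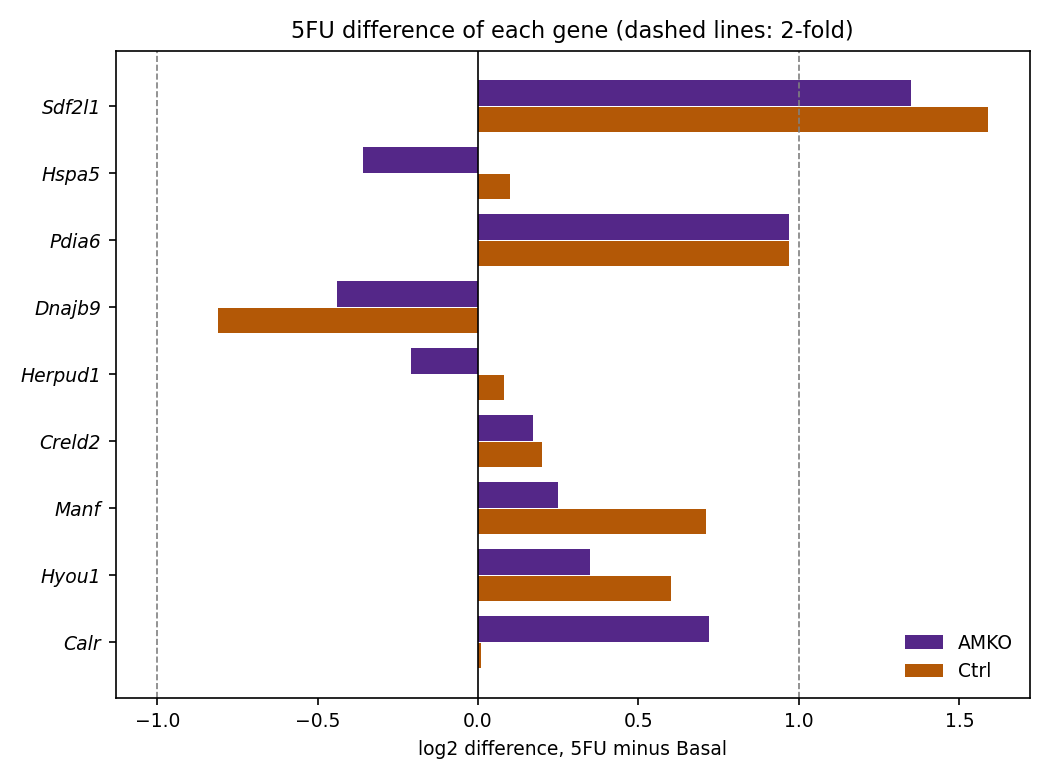
log2 difference between the 5FU and the Basal array for each gene, with AMKO (purple) above Ctrl (orange) and dashed lines at 2-fold. Sdf2l1 passes 2-fold in both genotypes, Pdia6 lies at 0.97 in both, Dnajb9 points down in both, and Hspa5 and Herpud1 point down in AMKO, while their Ctrl values, 0.10 and 0.08, turn below 0 with quantile normalization.

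The 5FU differences can be set beside the element printed above as a description, since they were known when the genes were chosen. The genes with the first form ran from -0.36 for Hspa5 to 0.97 for Pdia6 in AMKO, and from 0.01 for Calr to 0.97 for Pdia6 in Ctrl. Sdf2l1, with no match in its window, had the highest difference of the 9 in both genotypes. Over the whole promoter table, 49 genes held either form, and 29 of these were kept. After 5FU, 0 of the 29 were at least 2-fold higher in each genotype and 1 at least 2-fold lower in each, beside the background given above. Their median difference was -0.02 in AMKO and 0.01 in Ctrl, beside 0.03 and 0.01 over all kept genes. Without the 5 genes described here the medians of the 24 left were -0.04 in AMKO and -0.08 in Ctrl. Of the 24, 10 in AMKO and 11 in Ctrl were above 0, beside 52.3% and 50.1% of all kept genes. Hsp90b1, Dnajc3, Syvn1 and Tdrd9 are named among these 24 after their values were seen. Hsp90b1, the Hsp90 chaperone of the ER lumen, was higher by 0.44 in AMKO and 0.49 in Ctrl. Dnajc3, an inhibitor of PERK and a BiP co-chaperone, was higher by 0.57 and 0.37. Syvn1, a ubiquitin ligase of ER-associated degradation, differed by -0.41 in AMKO and 0.40 in Ctrl, and Tdrd9 by -1.85 and -0.85.

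The sensors and transcription factors of the unfolded protein response showed no common 5FU difference. Ern1, which encodes IRE1, was at 9.0 in AMKO after 5FU, against 9.55 at Basal, and at 8.88 in Ctrl after 5FU, against 9.41 at Basal, lower by 0.55 and 0.53. Eif2ak3, which encodes PERK, differed by 0.02 in AMKO and -0.20 in Ctrl, and Atf6 by -0.22 in AMKO and 0.17 in Ctrl. Atf4, the factor translated when PERK is active, differed by 0.27 in AMKO and 0.07 in Ctrl. The Ctrl value turned to -0.05 with quantile normalization. Ddit3, which encodes the death-linked factor CHOP, was at 8.51 in AMKO after 5FU, against 8.41 at Basal, and at 8.14 in Ctrl after 5FU, against 8.79 at Basal. Trib3, a pseudokinase induced by CHOP, was lower by 0.69 in AMKO and 0.81 in Ctrl. Atf6b and Ppp1r15b, named after their values were seen, were higher in both genotypes. Atf6b was higher by 0.50 in AMKO and 0.46 in Ctrl, and Ppp1r15b by 0.51 and 0.50. Of 15 such genes kept, 5 in AMKO and 7 in Ctrl were above 0, beside 52.3% and 50.1% of all kept genes. At least 2-fold higher were 0 in AMKO and 0 in Ctrl, beside 4.69% and 5.02% of all kept genes. At least 2-fold lower were 0 in AMKO and 1 in Ctrl, beside 3.55% and 4.46%. That gene was Ppp1r15a, which encodes the phosphatase subunit GADD34 and is named after its values were seen. It was at 10.05 in AMKO after 5FU, against 10.34 at Basal, and at 8.61 in Ctrl after 5FU, against 9.85 at Basal. The list's median was -0.07 in AMKO, which median centring turned to 0.04, and -0.12 in Ctrl.

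Xbp1 encodes the factor that IRE1 activates by splicing its RNA, and the array signal does not tell the spliced form from the unspliced one. It was at 9.56 in AMKO after 5FU, against 10.23 at Basal, and at 9.73 in Ctrl after 5FU, against 9.43 at Basal. The AMKO Basal array was the highest of the 4, as for Hspa5 and Herpud1. The 5FU difference was -0.67 in AMKO and 0.30 in Ctrl.

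The machinery that brings proteins into the ER and adds sugars to them was higher after 5FU across nearly all its genes, by small amounts. Of 22 genes for signal recognition, translocation and signal peptide cleavage, 21 in AMKO and 21 in Ctrl had a difference above 0, with medians of 0.55 and 0.30, while 52.3% and 50.1% of all kept genes lay above 0. Spcs3, a signal peptidase subunit, was at 9.29 in AMKO after 5FU, against 8.25 at Basal, and at 9.17 in Ctrl after 5FU, against 8.55 at Basal. Spcs2, another subunit, was higher by 0.95 in AMKO and 0.62 in Ctrl. All 12 oligosaccharyltransferase genes in AMKO and 11 of 12 in Ctrl were above 0, with medians of 0.70 and 0.32. Ostc was at 9.92 in AMKO after 5FU, against 8.54 at Basal, and at 9.76 in Ctrl after 5FU, against 9.23 at Basal, and Ddost was higher by 0.81 in AMKO and 0.66 in Ctrl. At least 2-fold higher were 2 of 22 entry genes in AMKO and 0 in Ctrl, and 1 of 12 oligosaccharyltransferase genes in AMKO and 0 in Ctrl, beside 4.69% and 5.02% of all kept genes. The AMKO count of entry genes was 0 with quantile normalization, 4 with median centring and 1 with averaged probe sets, and that of oligosaccharyltransferase genes was 3 with median centring.

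Of 27 other ER folding genes kept from a list of 30, 22 in AMKO and 24 in Ctrl were above 0, with medians of 0.29 and 0.37. The shares of all kept genes above 0 were 52.3% and 50.1%. Differences of at least 2-fold upward were seen for 4 in AMKO and 0 in Ctrl, beside 4.69% and 5.02% of all kept genes. Quantile normalization left 1 in AMKO and a median of 0.11. Prdx4, the peroxiredoxin of the ER, was at 9.38 in AMKO after 5FU, against 8.37 at Basal, and at 9.24 in Ctrl after 5FU, against 8.60 at Basal. Mydgf, a small ER and secreted protein, was higher by 1.11 in AMKO and 0.67 in Ctrl. Of 20 genes of ER-associated degradation, 14 in AMKO (70.0%) and 12 in Ctrl (60.0%) were above 0, beside the same 52.3% and 50.1%. Their medians were 0.20 and 0.22. Selenos, a selenoprotein of the ER membrane that recruits the ATPase VCP, was at 8.71 in AMKO after 5FU, against 7.79 at Basal, and at 9.15 in Ctrl after 5FU, against 7.70 at Basal. With the probe sets of Selenos averaged, its 5FU difference was 0.58 in AMKO and 0.80 in Ctrl, against 0.92 and 1.45 with its brightest probe set. The degradation genes at least 2-fold higher numbered 0 in AMKO (3 with median centring) and 2 in Ctrl (1 with quantile normalization and 0 with averaged probe sets). The shares of all kept genes were 4.69% in AMKO and 5.02% in Ctrl. Nploc4, a VCP cofactor, was higher by 0.65 in each genotype. Selenos and Nploc4 are named because they differed most in 1 direction in both genotypes. Of the 20 degradation genes, 5 in AMKO and 7 in Ctrl were below 0, among them Edem2, at -0.48 in AMKO and -0.56 in Ctrl. Genes of dividing cells differed more over the same arrays, with a mean of 9.70 in AMKO after 5FU, against 8.34 at Basal, and of 9.74 in Ctrl after 5FU, against 8.37 at Basal. Whether the ER differences go with cell division was not tested.

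**Figure D4:**
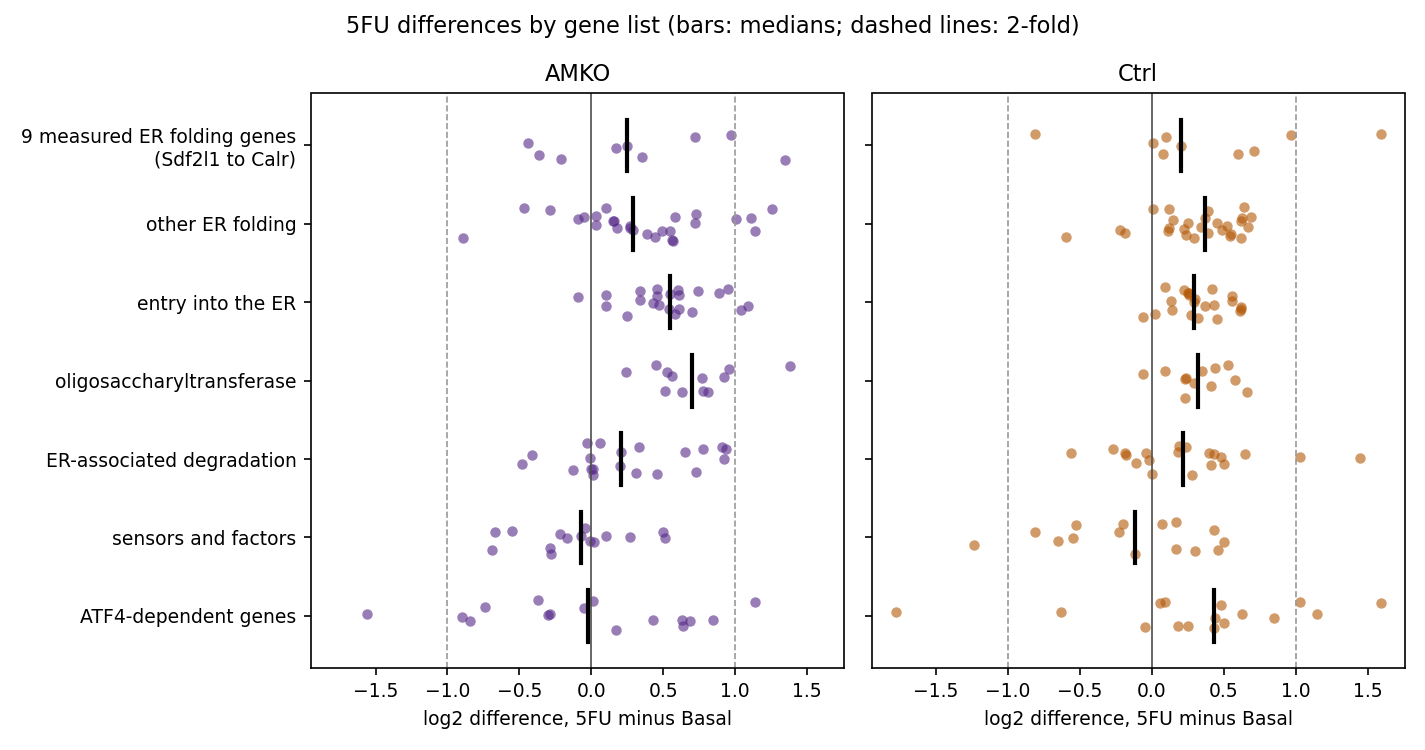
log2 difference between the 5FU and Basal arrays for each kept gene of 7 gene lists, AMKO on the left and Ctrl on the right, 1 point per gene, black bars at the medians and dashed lines at 2-fold. The median of the oligosaccharyltransferase genes lies at 0.70 in AMKO and 0.32 in Ctrl, and that of the sensors and factors at -0.07 and -0.12.

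The ATF4-dependent amino acid and stress genes went both ways in AMKO and were mostly higher in Ctrl. Of 16 kept, 8 in AMKO and 13 in Ctrl were above 0 after 5FU, beside 52.3% and 50.1% of all kept genes. Their medians were -0.02 (0.09 after median centring) in AMKO and 0.44 in Ctrl. At least 2-fold higher were 1 in AMKO and 3 in Ctrl, beside 4.69% and 5.02% of all kept genes. At least 2-fold lower were 1 in AMKO and 1 in Ctrl, beside 3.55% and 4.46%. Mthfd2, a mitochondrial folate enzyme, was at 6.92 in AMKO after 5FU, against 5.78 at Basal, and at 6.82 in Ctrl after 5FU, against 5.23 at Basal, which is under the floor of 5.475. Nupr1, a stress-induced chromatin protein, was at 7.35 in AMKO after 5FU, against 8.91 at Basal, and at 6.94 in Ctrl after 5FU, against 8.72 at Basal.

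The genotypes were set against each other at each time. At Basal, Hyou1 was at 7.92 in AMKO and 7.41 in Ctrl, a difference of 0.51, and Hspa5 at 10.32 in AMKO and 9.85 in Ctrl, a difference of 0.47. Manf was higher in AMKO by 0.40, Herpud1 by 0.27 and Sdf2l1 by 0.25. Calr was lower, at 9.42 in AMKO and 9.74 in Ctrl. The median of the 9 genes was 0.25, beside 0.00 over all kept genes. At least 2-fold higher in AMKO were 0 of 9, beside 0.228% of all kept genes, and at least 2-fold lower 0 of 9, beside 0.697%. For Hyou1, 96.0% of all kept genes had a lower difference, and for Hspa5 94.9%. Xbp1 was higher by 0.80, above 99.3% of all kept genes, and the 16 ATF4-dependent genes had a median of 0.34. These Basal values rest on a Ctrl array with high skeletal muscle genes and on an AMKO array with the highest overall median (5.55, against 5.47 in Ctrl). The part of the muscle genes was not tested. Median centring, which removes the offset in medians, left differences of 0.43 for Hyou1 and 0.39 for Hspa5 and turned that of Pdia6 from 0.06 to -0.02.

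After 5FU the median AMKO minus Ctrl difference of the 9 genes was 0.01, beside 0.06 over all kept genes. Of the 9 genes, 6 (Sdf2l1, Hspa5, Pdia6, Herpud1, Creld2 and Manf) differed by at most 0.11 between AMKO and Ctrl, as did 32.4% of all kept genes. At Basal 3 of the 9 did, beside 34.5%. The limit of 0.11 was set after the values were seen, as the size of the largest difference among the 6 named genes, that of Creld2. The count of 6 was therefore fixed by the limit and is no test. Creld2 was past it under the other scalings, at -0.15 with quantile normalization and -0.12 with median centring. Calr was higher in AMKO by 0.39, Dnajb9 by 0.28 and Hyou1 by 0.26. At least 2-fold higher in AMKO were 0 of 9, beside 0.74% of all kept genes, and at least 2-fold lower 0 of 9, beside 2.63%. The neutrophil genes differed by a median of -5.21 between the same arrays, and the part of such cells in the values of the 9 genes was not tested.

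**Figure D5:**
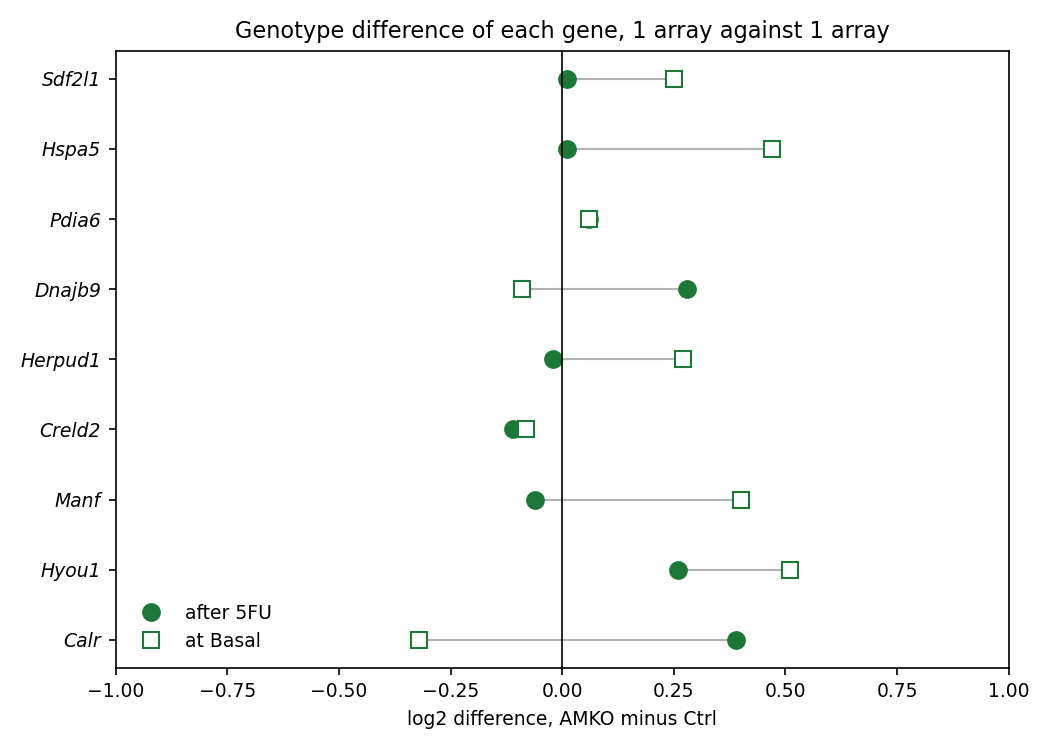
log2 difference between the AMKO and the Ctrl array for each gene after 5FU (filled circles) and at Basal (open squares). After 5FU the values run from -0.11 for Creld2 to 0.39 for Calr, and at Basal from -0.32 for Calr to 0.51 for Hyou1, while both marks of Pdia6 fall on 0.06.

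The rule that set these genes compared 5FU with Basal and not the genotypes, though earlier results of these data were known when they were chosen. The genotype effect averaged over both times was fitted with limma on all 4 arrays and with treatment as a second term. With 1 residual degree of freedom, this fit counts as error whatever part of the response to 5FU is not shared by AMKO and Ctrl. It called 0 of 14061 genes (0%) at an adjusted p under 0.05, with 446 genes at an unadjusted p under 0.05. The largest estimate among the 9 was that of Hyou1, at 8.09 in AMKO and 7.71 in Ctrl, a difference of 0.38 with a standard error of 0.15 (limma, unadjusted p 0.065, Benjamini-Hochberg adjusted p 0.906). Hspa5 differed by 0.24 with a standard error of 0.16 (adjusted p 0.906), and Pdia6 by 0.06 with a standard error of 0.12 (adjusted p 0.954). None of the 9 genes had an unadjusted p under 0.05 in this fit, which does not show that the genotypes had equal levels.

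How far the 5FU difference itself depended on genotype was read by taking the Ctrl value from the AMKO value, for which there is no test with 1 array in each group. It was 0.71 for Calr and 0.37 for Dnajb9, against -0.46 for Hspa5, -0.46 for Manf, -0.29 for Herpud1, -0.25 for Hyou1 and -0.24 for Sdf2l1. None of the 9 was at least 2-fold higher by this value, beside 2.57% of all kept genes, or at least 2-fold lower, beside 2.94%. For every gene this value and the Basal genotype difference rest on the same Basal arrays. Among the genes just listed, Hspa5, Manf, Herpud1 and Sdf2l1 differed by at most 0.06 between AMKO and Ctrl after 5FU. Among the regulators, Xbp1 had a value of -0.97 and Ppp1r15a of 0.95, and the oligosaccharyltransferase genes had a median of 0.52.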

How the data were processed

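The authors deposited 1 log2 signal per probe set and array. The log2 scale was read from the range of 1.99 to 13.43. How background and normalization were handled is not given in the sources used here. RNA was, per the labels, biotin-labelled by Affymetrix's procedure. Values were used as deposited, with 34472 probe sets. Of these, 23521 named 1 gene, 1814 several and 9137 none. Symbols were updated through Entrez identifiers for 23328. A gene took its probe set with the highest mean and was kept when its highest value was at least 5.475, which left 14061 genes.

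Genes at least 2-fold different were counted for 1 array against 1 array. The genotype effect was fitted with limma 3.58.1 in R 4.3.3 (intensity trend, 1 residual and 2.62 prior degrees of freedom, two-sided, Benjamini-Hochberg, threshold 0.05). The precision of arrays is limited by their number.

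The genes, lists and naming rule were chosen with earlier results of these data known. The rule named the 9 genes, 6 regulators, up to 3 genes of each pathway list that differed most in 1 direction in both genotypes, and up to 2 markers a cell type. Promoters came from RefSeq.

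Alternatives were quantile normalization, median centring, averaged probe sets, other floors, other fold sizes and limma without trend or with robust estimation.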

Additional observations from a re-analysis of the deposited data

Results flagged for a closer look

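These genes had 5FU differences of opposite direction in the genotypes, with 1 array in each group, so that the difference between the responses was not tested. Its value, AMKO minus Ctrl, was -0.46 for Hspa5 (-0.36 in AMKO and 0.10 in Ctrl) and -0.29 for Herpud1 (-0.21 and 0.08). Both Ctrl values turned below 0 with quantile normalization, which removes the opposition. Among the regulators it was -0.97 for Xbp1 (-0.67 in AMKO and 0.30 in Ctrl), 0.75 for Ddit3 (0.10 and -0.65), -0.39 for Atf6 (-0.22 and 0.17) and 0.22 for Eif2ak3 (0.02 and -0.20). The AMKO value of Ddit3 turned to -0.05 with quantile normalization. The medians of the ATF4-dependent genes, -0.02 in AMKO and 0.44 in Ctrl, differed by -0.46, and the AMKO median turned to 0.09 with median centring.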

How the results depend on the processing

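Of 90 differences of the 9 genes recomputed under quantile normalization or median centring, 78 kept their direction and 8 turned, all from values within 0.17 of 0. In 2 more the value became 0 and in 2 (Pdia6) it was 0 before. Averaged probe sets could not move them, since each gene has 1. No difference of 2-fold or more turned. Quantile normalization moved the median 5FU difference of the 9 genes in Ctrl to 0.10. Median centring moved it to 0.36 in AMKO and put 2 genes at least 2-fold higher in each genotype, since Pdia6 then passed. It shifted the all-gene median of the AMKO 5FU difference by 0.12 and the split of its calls to 71.5% higher, against 56.9%, and that of the Basal genotype calls to 14.0%, against 24.6%. At 1.5-fold, 3 genes were higher in AMKO, 4 higher and 1 lower in Ctrl, and 1 had a higher difference of differences. At 3-fold, 0 were higher in AMKO.

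Over all kept genes, the 1.5-fold and 3-fold counts were 3636 and 273 for 5FU in AMKO, 3352 and 482 for 5FU in Ctrl, 863 and 36 for genotype at Basal, 1332 and 226 after 5FU, and 2465 and 292 for the difference of differences. The main counts were 1159, 1333, 130, 474 and 774. A floor at the 75th percentile (7.32) gave 74 at Basal, 260 after 5FU and 417 for the difference of differences. The limma fit called 0 genes under each of its 7 alternatives. The genes at an unadjusted p under 0.05 ran from 262 of 8228 tested (75th percentile floor) to 875 of 22180 (no floor). No paired analysis was possible because each group has 1 array and no replicate number, beyond the limma fit, which already compares the genotypes within each time. For the same reason no array could be left out of a comparison.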
